A study of Mus musculus with 6 samples.

Results

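The genes described here are 34 genes of DNA repair and of the DNA damage checkpoint, chosen by name from the 27202 genes listed. By their main role, 6 belong to base excision repair, 4 to mismatch repair, 11 to homologous recombination, 7 to the Fanconi pathway and 6 to damage sensing and the checkpoint. RNA was sequenced from the colon of *Nedd4l* fl/fl *Villin* Cre mice (cKO, 3 libraries) and *Nedd4l* fl/fl littermates (WT, 3 libraries), all aged 8 to 10 weeks and all given 2% dextran sulfate sodium (DSS) in drinking water for 7 days. DSS is a chemical irritant of the colon lining that causes acute colitis. *Nedd4l* encodes an E3 ubiquitin ligase, and Cre driven by the *Villin* promoter removes the floxed gene in intestinal epithelial cells, whereas the RNA came from whole colon with its stromal and immune cells. Mice without DSS were not analysed here, and neither the sex of each mouse nor whether a library is a single mouse is given. The *Nedd4l* fl/fl mice and the *Villin* Cre line were both on a C57BL/6J background.

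DNA repair works by dedicated routes. In base excision repair, a glycosylase removes a damaged or misplaced base and an endonuclease opens the strand for resynthesis. Mismatch repair recognizes bases that replication paired wrongly and removes the new strand around them. Homologous recombination mends breaks of both strands by copying the sister chromatid, and the Fanconi pathway unhooks crosslinks between strands and hands the break to recombination. Sensor proteins bind broken or single-stranded DNA and signal through the kinases ATM and ATR to the checkpoint kinases. The colonic crypt renews itself by constant division, and many of these genes are transcribed mainly around DNA replication.

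The members were chosen with the difference between cKO and WT in these same libraries known. Their differences are therefore given as a description, without p-values. Values are normalized counts, that is, the reads of a gene scaled by a single factor for each library. Log2 fold changes are cKO minus WT on log2(normalized count + 1) and carry the standard error (SE) of the fit across all genes; this scale understates the change of genes at low level. The libraries held 14914367 to 17547270 steps of the smallest value each, which is their total if 1 step is 1 read. All 34 members passed the filter of a mean of at least 10, as did 16246 genes in all.

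*Nedd4l* itself had normalized counts of 476, 942 and 566 in cKO 1 to 3 and of 1241, 1271 and 1266 in WT 1 to 3. Every cKO library lay below every WT library, but cKO 2 lay closer to WT than the other two. The log2 fold change of *Nedd4l* was −0.99 (SE 0.24, adjusted p = 0.225, limma with Benjamini-Hochberg adjustment). Without cKO 2 it was −1.28 (adjusted p = 0.0131), and with libraries weighted by their quality it was −1.09 (adjusted p = 0.0212). The libraries were correlated across the 16246 genes tested, which are not independent replicates. Library cKO 1 had the lowest correlations with WT, with an r of 0.947 to 0.949, and an r of 0.954 with cKO 2 and 0.972 with cKO 3. Library cKO 2 had an r of 0.978 with cKO 3 and of 0.973 to 0.980 with the WT libraries. In whole tissue, fewer cells of a type and less RNA per cell cannot be told apart. P-values measure the spread between these samples, which may be technical in part.

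Of the 34 members, 30 had a log2 fold change below 0, and the median was −0.39. Over all 16246 genes tested the median was 0.0013 and 49.8% lay below 0. In 20 members every cKO value was below every WT value, and in 0 members was it above. Among all genes tested, 10.9% were lower in cKO without overlap and 10.5% were higher. A log2 fold change of −0.3 or lower was found in 22 members and in 15% of all genes tested. Without cKO 1, 23 members were lower without overlap and 3, *Ogg1*, *Rad51b* and *Fancc*, were higher (15.6% and 15.1% of all genes tested), and the median was −0.43. Without cKO 2, 20 members were lower without overlap and 1, *Atm*, was higher (19.1% and 18.5% of all genes tested), and the median was −0.37. Nothing is read from these counts, since the same libraries chose the members. At an adjusted p under 0.05, 0 genes were called over the whole table, lower or higher (0% and 0%). At an unadjusted p under 0.05, limma gave 1151 genes that were lower (7.08%) and 1122 that were higher (6.91%).

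**Figure D1:**
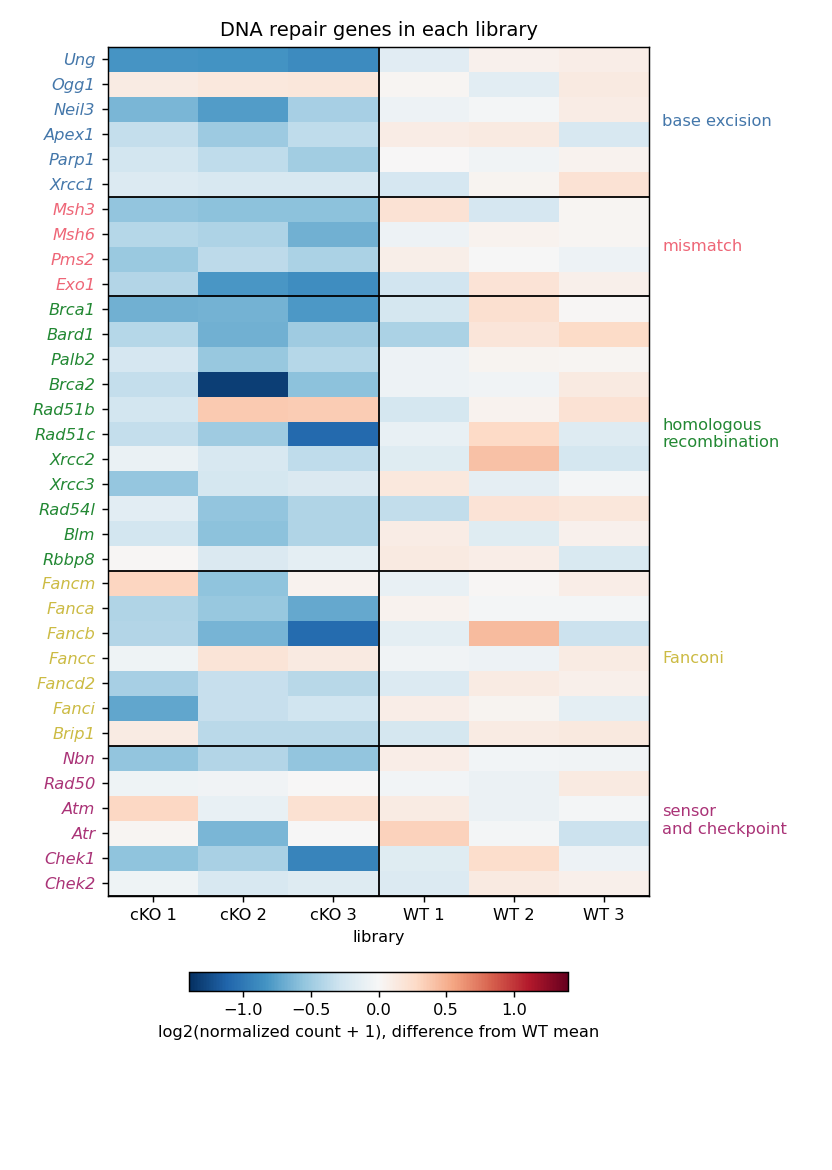
Heat map of log2(normalized count + 1) of the 34 genes in each of the 6 libraries, as the difference from the mean of the 3 WT libraries, with the genes grouped by repair pathway. Blue is below and red above the WT mean; the cKO mean is below the WT mean for 30 genes, with Ogg1, Rad51b, Fancc and Atm as the exceptions.

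Levels were compared as the mean normalized count over the 6 libraries per kb of the gene length listed. In base excision repair the levels per kb were 233 for *Parp1*, 124 for *Apex1*, 71.6 for *Xrcc1*, 67.8 for *Ogg1*, 59.02 for *Ung* and 39.7 for *Neil3*. In mismatch repair they were 184 for *Msh6*, 28.9 for *Msh3*, 25.6 for *Exo1* and 21.4 for *Pms2*. The homologous recombination genes had 160.4 for *Rbbp8*, 151 for *Xrcc3*, 44.6 for *Brca1*, 40.8 for *Rad54l*, 36.9 for *Bard1*, 26.3 for *Blm*, 21.4 for *Palb2*, 20.5 for *Xrcc2*, 14.5 for *Brca2*, 13.1 for *Rad51c* and 12.2 for *Rad51b*. *Parp1*, the enzyme that marks nicked DNA with poly(ADP-ribose), was the most abundant member per kb in both groups. *Rad51b* was the least abundant over the 6 libraries and in WT, at 11.4 per kb, whereas in cKO it was 12.9, above *Rad51c* at 10.3 and *Brca2* at 11.1. In the Fanconi pathway the levels per kb were 50.04 for *Fanca*, 32.7 for *Fancb*, 28.1 for *Fancd2*, 27.6 for *Brip1*, 23.6 for *Fanci*, 23.3 for *Fancc* and 19.7 for *Fancm*. Among the sensors and kinases they were 171 for *Nbn*, 134 for *Rad50*, 97.3 for *Chek2*, 58.6 for *Atm*, 41.7 for *Chek1* and 19.7 for *Atr*. Every member had a value above 0 in every library.

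Promoter sequences were examined because genes transcribed around DNA replication often carry E2F sites, which were searched as the letters TTTCCCGC, TTTGGCGC, TTTCGCGC and TTTGCCGC on both strands. RefSeq windows of GRCm38.p6, from 250 bases before to 50 after the start site, were at hand for 28 of the 34 members. Such a match was found in 6 of the 28 members (21.4%), in 2.61% of the 27025 genes with a window and in 4.25% of the 11457 tested genes with a window. The 6 genes were *Msh3*, *Msh6*, *Brca2*, *Bard1*, *Rad51c* and *Chek2*, and the stretches around their matches are shown to let the sites be compared. Each is printed 5′ to 3′ on the strand of the gene, and capitals mark the match, which reads GCGGGAAA or GCGCGAAA where it lies on the opposite strand. The *Msh3* window holds a match on each strand, which overlap, and the capitals mark both.
Msh6, GRCm38.p6 chr17:87975043-87975072, plus strand: gtaggacgcgcctcctcccgacTTTCCCGC
Msh3, GRCm38.p6 chr13:92355164-92355235, minus strand: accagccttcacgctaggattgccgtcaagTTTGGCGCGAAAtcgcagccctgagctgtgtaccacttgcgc
Brca2, GRCm38.p6 chr5:150522423-150522490, plus strand: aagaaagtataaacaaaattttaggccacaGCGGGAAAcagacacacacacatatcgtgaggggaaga
Bard1, GRCm38.p6 chr1:71103144-71103211, minus strand: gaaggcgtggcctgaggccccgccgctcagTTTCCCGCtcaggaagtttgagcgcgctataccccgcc
Rad51c, GRCm38.p6 chr11:87404488-87404517, minus strand: gcggggtttgggtttccagcgcTTTCGCGC
Rad51c, second start site, GRCm38.p6 chr11:87404952-87404981, minus strand: tggcccacaatcccccgcgaggGCGGGAAA
Chek2, GRCm38.p6 chr5:110839801-110839868, plus strand: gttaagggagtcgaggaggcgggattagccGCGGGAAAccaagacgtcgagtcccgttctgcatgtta

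The match of *Msh6* begins 16 bases after the start site, and those of *Msh3* 202 and 198 bases before it. Of the 6 genes, 4 were lower in cKO without overlap, beside 20 of the 34 members and 10.9% of all genes tested, whereas *Bard1* and *Chek2* overlapped. The base excision and Fanconi members, among them *Ung* and *Fanca*, held 0 matches in 6 and 6 genes with a window. The CCAAT box (CCAAT, both strands) was found in 18 of 28 members (64.3%), in 41.1% of all genes with a window and in 42.2% of those tested. The CHR element of genes expressed late in the cycle (TTTGAA, both strands) was found in 2 of 28 members (7.14%). It was found in 20.2% of all genes with a window and in 14.9% of those tested. For comparison, 9 of 21 S phase genes (42.9%) held an E2F match and 12 of 17 genes of G2 and M phase (70.6%) a CHR match. A match is a description of letters and not a bound site, and a window without a match may still hold a site. The part of such sites in the member values was not tested.

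The base excision genes showed the widest range, from the lowest log2 fold change of all members to one above 0. *Ung* (ENSMUSG00000029591, GRCm38 chr5:114130386-114139323) encodes the glycosylase that removes uracil from DNA. Its normalized counts were 233, 232 and 225 in cKO 1 to 3 and 370.3, 433 and 443 in WT 1 to 3. The cKO libraries were nearly alike, at 230.0 ± 4.45 (SD, n = 3), and their mean was 44.6% below the WT mean of 415 ± 39.4 (log2 fold change −0.85, SE 0.12). *Neil3*, a glycosylase for oxidized bases that also cuts crosslinks, had 172, 155 and 194 in cKO 1 to 3 and 254, 263 and 288 in WT 1 to 3 (log2 fold change −0.63, SE 0.14). Its groups were separate as well, with a cKO mean 35.3% below that of WT. *Apex1*, the endonuclease that cuts the strand at a site without a base, had 159, 140.4 and 157 in cKO and 215, 219 and 171 in WT (log2 fold change −0.40, SE 0.16). These groups came close, because WT 3 stood well below WT 1 and WT 2. Exons of *Pip4p1* on the opposite strand cover 61.7% of the exon bases of *Apex1*, and whether the counting used strand is not stated, so reads of the pair may not be separated.

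*Parp1* had normalized counts of 1165, 1083 and 989 in cKO 1 to 3 and 1392, 1341 and 1441 in WT 1 to 3 (log2 fold change −0.37, SE 0.09). The gap between the groups was wide against their spread, with means of 1079 ± 87.8 and 1392 ± 49.8 (SD, n = 3 each). *Xrcc1*, the scaffold that holds the single-strand break complex together, ran from 382 to 390.1 in cKO and from 378 to 512 in WT (log2 fold change −0.21, SE 0.13). The lowest WT value was below all cKO values, so the groups overlapped. *Ogg1*, the glycosylase for 8-oxoguanine, ran from 152 to 158 in cKO and from 127 to 154 in WT (log2 fold change 0.14, SE 0.15). It was one of the members whose fitted value lay above 0, also with overlap between the groups.

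All 4 mismatch repair members were lower in cKO without overlap (10.9% of all genes tested), and their median log2 fold change was −0.53. MSH6 takes part in the recognition of single mismatches and MSH3 in that of longer loops. *Msh6* had 695, 679 and 574 in cKO 1 to 3 and 871, 950.0 and 934 in WT 1 to 3 (log2 fold change −0.50, SE 0.10). *Msh3* had 264, 259.8 and 259.9 in cKO and 446, 328 and 395 in WT (log2 fold change −0.57, SE 0.14). For *Msh3* the cKO libraries were almost equal while the WT libraries were spread, at 261 ± 2.16 and 390.1 ± 59.2 (SD, n = 3 each). *Pms2*, part of the endonuclease that nicks the strand to be removed, had 139, 155 and 146 in cKO and 211, 199.7 and 189.7 in WT (log2 fold change −0.45, SE 0.14). *Exo1* (ENSMUSG00000039748, GRCm38 chr1:175880581-175913489), the exonuclease that removes that strand and also trims breaks, had 198, 150.4 and 144 in cKO and 220.2, 303 and 279 in WT (log2 fold change −0.70, SE 0.19). Its separation was narrow, because cKO 1 and WT 1 came near to each other, and its cKO mean was 38.5% below that of WT.

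Homologous recombination held the most members, of which 6 of 11 were lower in cKO without overlap (10.9% of all genes tested), with a median log2 fold change of −0.39. BRCA1, together with its partners, prepares the broken end for recombination. With BARD1 it forms a ubiquitin ligase that promotes end resection and the loading of later factors. *Brca1* had 294, 296 and 269 in cKO 1 to 3 and 397, 549 and 477 in WT 1 to 3 (log2 fold change −0.71, SE 0.14). The cKO values were close to each other and well below the spread WT values, with a mean 39.6% below that of WT. Its partner *Bard1* had 184, 153 and 172 in cKO and 179, 274 and 293 in WT (log2 fold change −0.52, SE 0.21). Here WT 1 fell among the cKO libraries, so the partners did not separate the groups equally. *Palb2*, the bridge between BRCA1 and BRCA2, had 151, 123 and 135 in cKO and 169.9, 183 and 182 in WT (log2 fold change −0.39, SE 0.15). *Brca2* (ENSMUSG00000041147, GRCm38 chr5:150522630-150570329), which acts on the resected single strand, had 194, 97.3 and 163 in cKO and 231, 235 and 267 in WT (log2 fold change −0.74, SE 0.25). Library cKO 2 was by far the lowest for *Brca2*, and the log2 fold change without it was −0.45.

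Among *Rad51c*, *Xrcc3*, *Xrcc2* and *Rad51b*, whose products form complexes that assist recombination, the picture was mixed. *Rad51c* had 54.6, 48.6 and 31.98 in cKO 1 to 3 and 64.2, 83.7 and 60.9 in WT 1 to 3 (log2 fold change −0.64, SE 0.28). *Xrcc3* had 315, 387 and 400.2 in cKO and 512, 421 and 452 in WT (log2 fold change −0.33, SE 0.13). Both separated the groups by a small gap. *Xrcc2* ran from 88.7 to 106 in cKO and from 95.9 to 151 in WT (log2 fold change −0.22, SE 0.22), and *Rad51b* from 35.5 to 55.3 and from 35.6 to 48.9 (log2 fold change 0.16, SE 0.28). Both overlapped, and their SE were as large as or larger than their differences.

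The remaining recombination genes act before and after strand invasion. *Rad54l*, a motor protein that remodels DNA during strand exchange, had 317, 239.9 and 262 in cKO 1 to 3 and 277, 401 and 391 in WT 1 to 3 (log2 fold change −0.37, SE 0.18). Library cKO 1 stood above WT 1, and 15.4% of its exon bases are shared with *Lrrc41* on the opposite strand. *Blm*, the helicase that dissolves joined DNA molecules, had 219.5, 177 and 196 in cKO and 283, 234 and 275 in WT (log2 fold change −0.42, SE 0.15), without overlap. *Rbbp8*, which encodes the resection factor CtIP, ran from 556 to 648 in cKO and from 551 to 698 in WT (log2 fold change −0.11, SE 0.12). Its lowest value of all was a WT library.

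**Figure D2:**
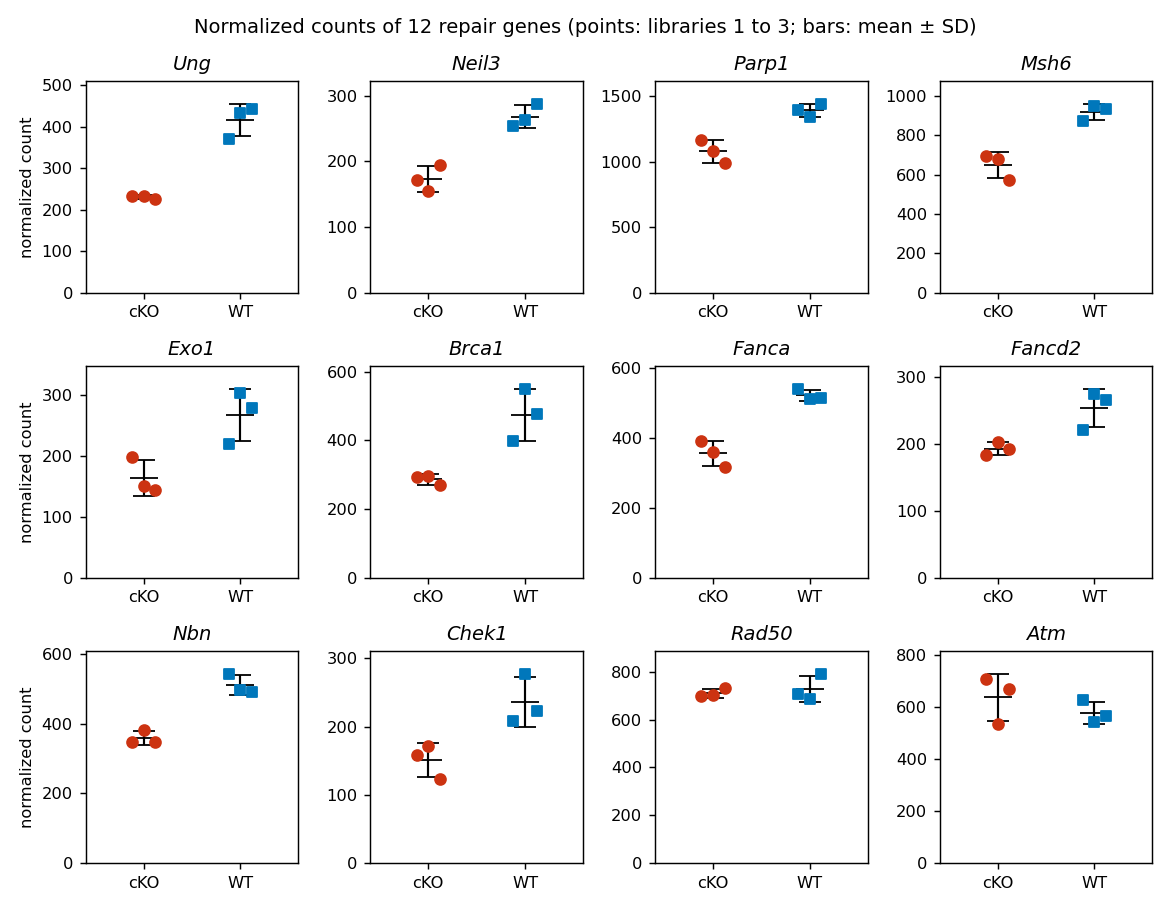
Normalized counts of 12 of the repair genes, with a point for each of the 3 cKO (red circles) and 3 WT (blue squares) libraries and bars for the mean ± SD; every axis starts at 0. The cKO points lie below the WT points for the first 10 genes, from Ung at 44.6% below the WT mean to Parp1 at 22.5%, whereas the points of Rad50 and Atm overlap.

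In the Fanconi pathway, 4 of 7 members were lower in cKO without overlap (10.9% of all genes tested), and the median log2 fold change was −0.39. FANCM anchors the pathway at the crosslink, FANCA, FANCB and FANCC sit in the core complex that adds ubiquitin, and FANCD2 and FANCI are the pair that receives it. The anchor *Fancm* ran from 140.4 to 256 in cKO and from 194 to 222 in WT (log2 fold change −0.07, SE 0.22), with the lowest and the highest value both in cKO. Of the core complex, *Fanca* had 390.1, 359 and 317 in cKO 1 to 3 and 540.2, 511 and 513 in WT 1 to 3 (log2 fold change −0.56, SE 0.11). This was the clearest separation in the pathway, at 355 ± 36.9 against 521 ± 16.2 (SD, n = 3 each), although 10.5% of its exon bases are shared with *Zfp276* on the opposite strand. *Fancb* (ENSMUSG00000047757, GRCm38 chrX:164980592-164997272) had 89.1, 75.2 and 55.7 in cKO and 108, 162 and 95.9 in WT (log2 fold change −0.71, SE 0.27), a separation of only a few normalized counts between cKO 1 and WT 3. *Fancc* ran from 180.2 to 214 in cKO and from 179 to 205 in WT (log2 fold change 0.08, SE 0.14). Its groups overlapped, so unlike *Fanca* and *Fancb* it could not be placed on either side.

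The pair that receives ubiquitin differed by similar amounts. *Fancd2* had 183, 202 and 193 in cKO 1 to 3 and 221, 274 and 266 in WT 1 to 3 (log2 fold change −0.39, SE 0.14). *Fanci* had 93.9, 125 and 129 in cKO and 167, 161 and 143 in WT (log2 fold change −0.44, SE 0.18). Neither gene overlapped between the groups, and 16% of the exon bases of *Fanci* are shared with *Polg* on the opposite strand. *Brip1*, the helicase that ties the pathway to BRCA1, ran from 168 to 237 in cKO and from 184 to 239.6 in WT (log2 fold change −0.21, SE 0.19), with cKO 1 among the WT libraries.

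Among the groups of members, the sensor and checkpoint genes were the least shifted, with a median log2 fold change of −0.18. Of these, 2 of 6 were lower in cKO without overlap (10.9% of all genes tested). The 19 other genes of this role had a median of −0.32, so the ranking holds for the members only. The median of the 6 members depended on single libraries, from −0.26 without cKO 1 to −0.073 without cKO 2. NBN and RAD50 are subunits of the complex that first binds a broken end, yet their genes differed. *Nbn* had 346, 383 and 347 in cKO 1 to 3 and 542, 496 and 490.3 in WT 1 to 3 (log2 fold change −0.51, SE 0.10). *Rad50* ran from 698 to 730.3 in cKO and from 686 to 791 in WT (log2 fold change −0.03, SE 0.09). The first had a gap wider than the spread within either group, and the second had none. *Chek1* (ENSMUSG00000032113, GRCm38 chr9:36708482-36727065), the kinase that slows replication when forks stall, had 158, 171 and 123 in cKO and 208, 277 and 223 in WT (log2 fold change −0.65, SE 0.19). *Chek2*, the kinase downstream of ATM, ran from 262 to 293 in cKO and from 269 to 335 in WT (log2 fold change −0.16, SE 0.13). The upstream kinase *Atm* ran from 534 to 706 in cKO and from 542 to 625 in WT (log2 fold change 0.13, SE 0.13), and *Atr* from 313 to 498 and from 398 to 614 (log2 fold change −0.21, SE 0.23). For all 3 of these kinases the groups overlapped.

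**Figure D3:**
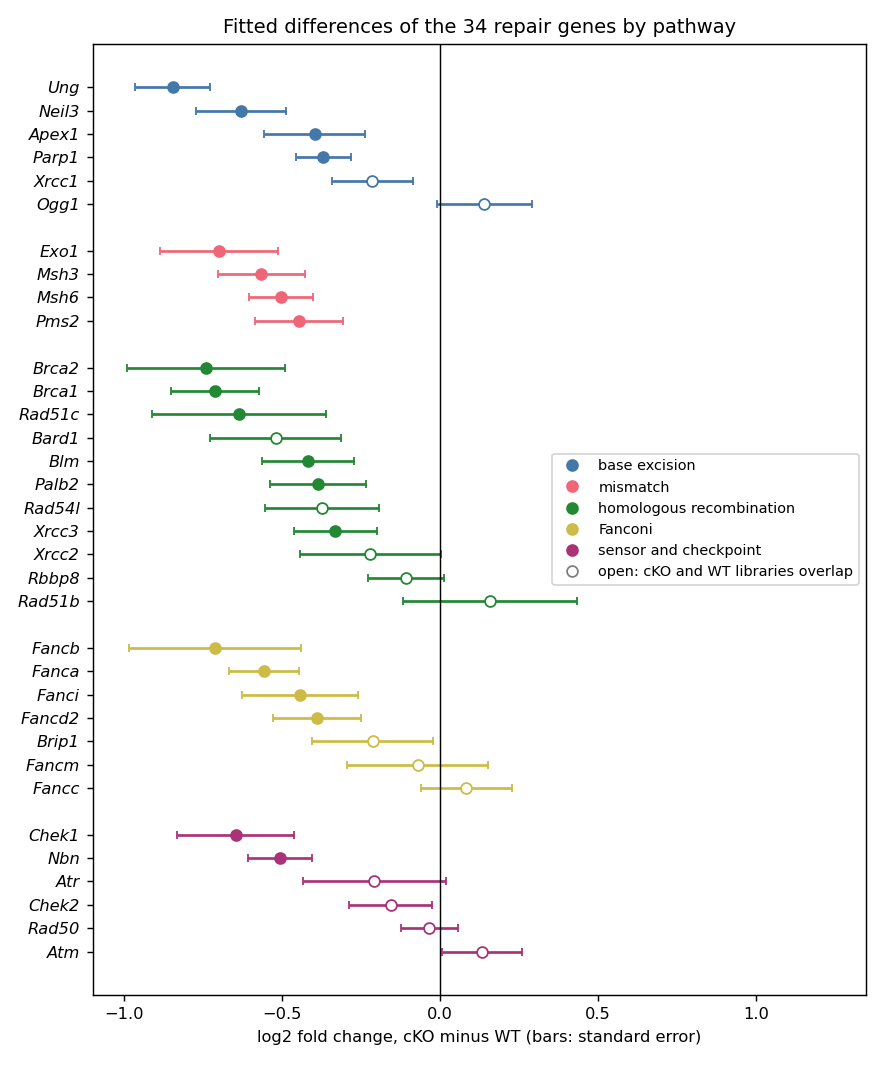
Log2 fold change (cKO minus WT, x axis) of the 34 genes, ordered within each repair pathway, with bars of 1 standard error. Filled points mark the 20 genes whose cKO libraries all lie below the WT libraries and open points the 14 that overlap; the values run from −0.85 for Ung to 0.16 for Rad51b.

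Exons on the opposite strand also cover 10.6% of the exon bases of *Ogg1* (by *Camk1*) and 5.64% of *Palb2* (by *Gm16326*). They cover 18.6% of *Fancc* (by *Gm16133* and *2010111I01Rik*) and 7.07% of *Fancm* (by *Gm47870* and *Gm47869*). The values of these genes thus carry the same uncertainty as *Apex1*, *Fanca*, *Fanci* and *Rad54l*. Of the other members, *Pms2* shares 5.90% of its exon bases with *Gm42421* and *Rsph10b* on the same strand, and *Atr* shares 5.78% with 3 genes. The remaining 24 members share less than 5% with all other genes together.

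The lowest cKO values were spread over all 3 cKO libraries. Of the 34 members, 14 had their lowest cKO value in cKO 2, 11 in cKO 3 and 9 in cKO 1. The mean log2 difference of the members from the WT mean was −0.29, −0.42 and −0.40 in cKO 1 to 3 and −0.064, 0.055 and 0.0085 in WT 1 to 3. The cKO library with the most *Nedd4l* RNA, cKO 2, had the lowest member mean. It lay close to that of cKO 3 beside a pooled SD within genotypes of 0.065, so their order carries no meaning. Summed over the 34 genes, the normalized counts ran from 9271 to 10216 in cKO and from 12010 to 12434 in WT. Under 11 other settings of the fit, 27 members stayed below 0, 4 stayed above, and *Atr*, *Fancm* and *Rad50* took both signs.

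The same pathways and further repair routes hold 144 genes that are no members. They include 11 end joining, 19 nucleotide excision and 3 direct reversal genes, from routes that hold no member. Of the 144 genes, 142 were tested. Of these, 108 had a log2 fold change below 0 with a median of −0.17, and 58 were lower and 7 higher in cKO without overlap (10.9% and 10.5% of all genes tested). Without cKO 2 these were 67 and 11 (19.1% and 18.5%). At an unadjusted p under 0.05, 40 were lower and 2, *Wrn* and *Polk*, were higher, against 7.08% and 6.91% of all genes. At an adjusted p under 0.05, 0 were called in either direction (limma, smallest adjusted p = 0.116), so none passed the test. With libraries weighted by quality, 24 were called lower and 1 higher, beside 2.27% and 1.61% of all genes tested. This list was written with results of these libraries known, so its counts are no independent support.

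Further mismatch repair genes lay mostly on the side of the members. Over the 13 other mismatch genes, which include the clamp loader and polymerase delta, the median was −0.38, with 10 lower in cKO without overlap (10.9% of all genes tested). The clamp loader subunits *Rfc3* (log2 fold change −0.70, limma adjusted p = 0.116) and *Rfc5* (log2 fold change −0.43, adjusted p = 0.19) and the polymerase subunit *Pold2* (log2 fold change −0.46, adjusted p = 0.192) had the smallest p. For the 36 other recombination genes the median was −0.21 and 20 were lower without overlap, beside the same share of all genes. Here *Rpa1* (log2 fold change −0.56, limma adjusted p = 0.137), which coats single-stranded DNA, was on the side of *Brca1* and *Brca2*, and the helicase *Wrn* (log2 fold change 0.44, adjusted p = 0.215) was on the other. For the 19 other sensor and checkpoint genes the median was −0.32, against −0.18 for the members of this role. Of the 19, 12 were lower without overlap, beside the same share of all genes. In front were the fork protein *Clspn* (log2 fold change −0.81, limma adjusted p = 0.124), the kinase *Wee1* (log2 fold change −0.80, adjusted p = 0.159) and the break mediator *Mdc1* (log2 fold change −0.58, adjusted p = 0.169). CLSPN carries the signal from ATR to CHEK1, and its gene stood on the side of *Chek1*.

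The other base excision and Fanconi genes, and the routes that hold no member, were closer to the centre of all genes. The members of base excision and of the Fanconi pathway had medians of −0.38 and −0.39, unlike the other genes of these pathways. The 20 other base excision and single-strand break genes had a median of 0.0015, with 3 lower at an unadjusted p under 0.05 (7.08% of all genes tested). These were the clamp *Pcna* (log2 fold change −0.67, limma adjusted p = 0.137), the replication ligase *Lig1* (log2 fold change −0.60, adjusted p = 0.169) and *Tdp2* (log2 fold change −0.24, adjusted p = 0.314), which removes trapped topoisomerase. The 21 other Fanconi and crosslink genes had a median of −0.15, led by *Faap100* (log2 fold change −0.53, limma adjusted p = 0.267) of the core complex, *Usp1* (log2 fold change −0.33, adjusted p = 0.273), which takes ubiquitin off FANCD2, and the ligase *Fancl* (log2 fold change −0.51, adjusted p = 0.31). End joining, which repairs breaks without a template, had a median of −0.065 over 11 genes, with *Xrcc6* (log2 fold change −0.34, limma adjusted p = 0.219), *Lig4* (log2 fold change 0.29, adjusted p = 0.383) and *Xrcc5* (log2 fold change −0.25, adjusted p = 0.452) first by p. Nucleotide excision repair, which removes bulky lesions, had a median of −0.051 over 19 genes, with 0 past an unadjusted p of 0.05 in either direction; it includes *Ddb2* (log2 fold change −0.32, limma adjusted p = 0.406) and *Xpa* (log2 fold change 0.37, adjusted p = 0.439). The 3 direct reversal genes were *Mgmt* (log2 fold change −0.78, limma adjusted p = 0.337), *Alkbh2* (log2 fold change −0.17, adjusted p = 0.72) and *Alkbh3* (log2 fold change −0.03, adjusted p = 0.934).

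**Figure D4:**
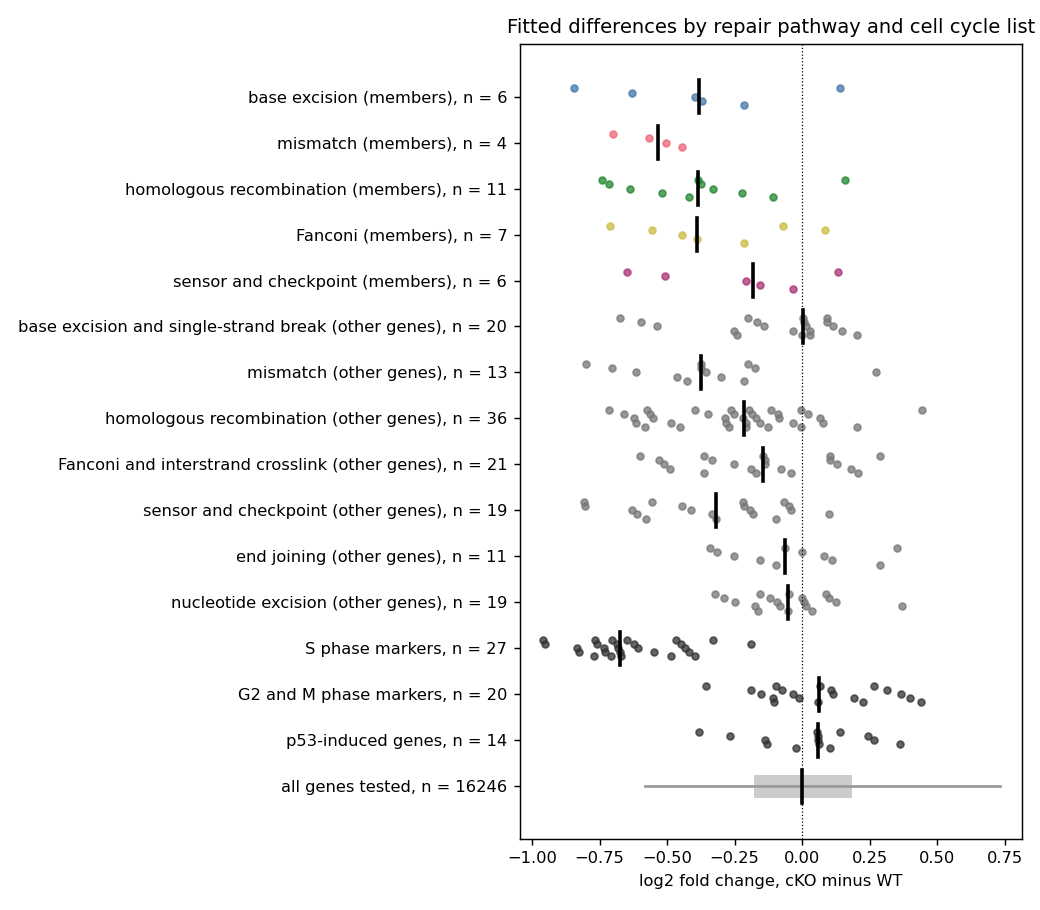
Log2 fold changes (cKO minus WT, x axis) of the members of each pathway (coloured), of other genes of the same and further repair pathways (grey) and of cell cycle and p53-induced genes (dark), with a point per gene and a bar at the median. The bottom line gives all 16246 genes tested as the median, the 25th to 75th percentile (box) and the 5th to 95th percentile (line); the medians run from −0.67 for S phase to 0.064 for G2 and M phase.

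Genes of DNA replication had lower values in the same libraries as the members. Of 27 S phase genes, such as the MCM helicase and ribonucleotide reductase, 27 had a log2 fold change below 0, with a median of −0.67, and 24 were lower in cKO without overlap (10.9% of all genes tested). The mean log2 difference of the S phase genes from WT was −0.43, −0.67 and −0.80 in cKO 1 to 3 and −0.13, 0.082 and 0.046 in WT 1 to 3. The members and the S phase genes thus both separated the genotypes. Of 20 genes of G2 and M phase the median was 0.064, with 2 lower and 5 higher without overlap (10.9% and 10.5% of all genes tested), and their library means overlapped between the groups. The part of the S phase genes in the member values was not tested.

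Cell type markers were read beside the members. Of 12 epithelial markers 12 overlapped between the groups and 9 had a log2 fold change below 0 (median −0.064), and their summed normalized counts ran from 267787 to 324445 in cKO and from 297670 to 319845 in WT. The epithelial share of the cells was not measured. The summed counts of 6 crypt stem cell markers were 1950, 3362 and 3310 in cKO 1 to 3 and ran from 2966 to 3435 in WT. Of these 6, 5 had a log2 fold change below 0 (median −0.38), and 1, *Axin2*, was lower without overlap (10.9% of all genes tested). The mean log2 difference of the stem cell markers from WT was −0.94, −0.029 and −0.031 in cKO 1 to 3, so it lay mainly in cKO 1. That of the members was −0.29, −0.42 and −0.40. The summed counts of 9 myeloid markers ran from 9474 to 15199 in cKO and from 6977 to 9083 in WT, with 2 of 9 higher without overlap (10.5% of all genes tested). Those of 6 fibroblast markers ran from 20966 to 42446 and from 10564 to 18057, with 3 of 6 higher. The lists of 9 B cell, 7 T cell, 6 smooth muscle and 5 endothelial markers overlapped between the groups by library mean. The sums of the myeloid and of the fibroblast markers did not overlap between the groups, and their means per library were higher in every cKO library. None of these markers was listed at 0 in any library. The part of epithelial, crypt stem, myeloid and fibroblast RNA in the member values was not tested.

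**Figure D5:**
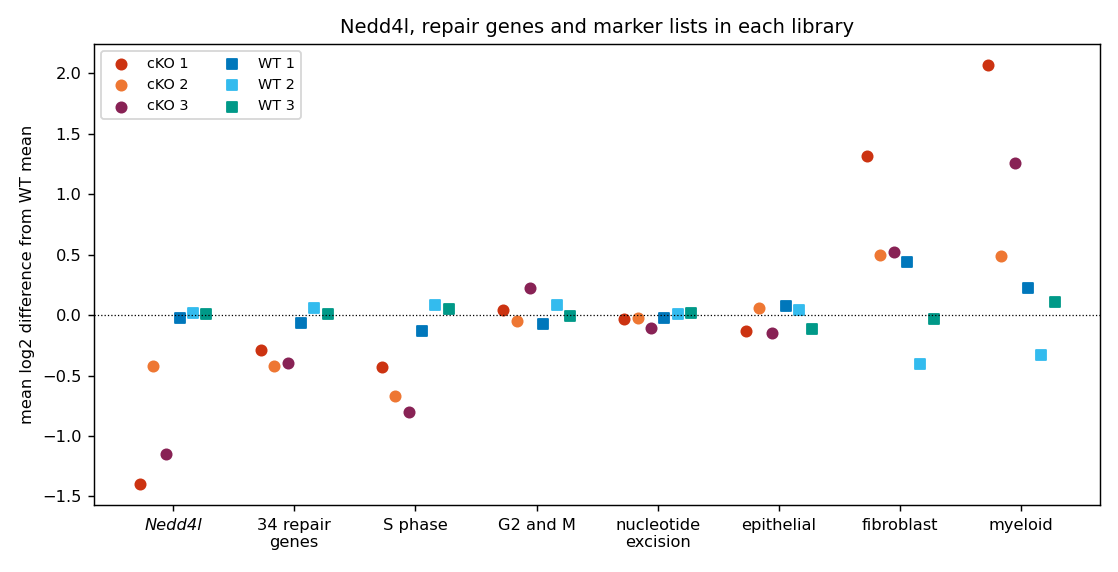
Mean log2 difference from the WT mean (y axis) of Nedd4l, the 34 repair genes and 6 other gene lists, with 1 point per library (circles cKO, squares WT). The repair and S phase genes lie below all WT libraries in all 3 cKO libraries, the epithelial, G2 and M and nucleotide excision lists overlap, and cKO 2 has the most Nedd4l RNA of the cKO libraries (942).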

How the data were processed

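Colon RNA of 3 cKO and 3 WT libraries was extracted with TRIzol and prepared with the NEBNext Ultra kit. The submitters' processing notes name HISAT2 2.0.5, featureCounts 1.5.0-p3 and hg18, a human build; 97.3% of the listed genes have the coordinates of the mouse annotation GENCODE M21 on GRCm38. Strand use in counting is not given in the sources used here. The authors deposited normalized counts, a signal equal to the number of reads divided by 1 size factor per library, and 1 step of that signal was 0.900 to 1.11 in the 6 libraries. The table also holds the authors' genotype means, log2 fold changes and p-values, which were not used.

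Genes with a mean of 10 or more over the 6 libraries were put on the log2(normalized count + 1) scale, and cKO was compared with WT by limma 3.58.1 in R 4.3.3 (lmFit, then eBayes with trend and robust). P-values were adjusted over all tested genes by the Benjamini-Hochberg method, at a threshold of 0.05. The fit was tested on simulated data. Members and gene lists were chosen with earlier results of these data known. All 34 members are named, with the value in every library where the absolute log2 fold change was at least 0.3 or the genotypes did not overlap; of each further repair list the 3 genes with the smallest p are named, except that some genes are not reported here. Alternatives were another pseudocount, no filter, quantile normalization, array weights, a replicate block and leaving out each library. The smallest p of an exact permutation test with 3 against 3 is 0.1, so none was used. Promoter windows came from RefSeq on GRCm38.p6, exon overlaps from GENCODE M21, and figures were drawn with matplotlib 3.10.9. The depth limits precision, and read counts without molecular identifiers are not independent molecules.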

Additional observations from a re-analysis of the deposited data

How the results depend on the processing

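Over the 34 repair genes the median log2 fold change stayed between −0.43 and −0.37 under the 11 alternatives. Of 374 values of single members, 371 moved by less than the spread between replicates. Leaving out 1 library cannot move a value by more than this spread, and the replicate block returns the same values. That count was therefore largely fixed in advance and is no measure of stability. In counts chosen after seeing the data, leaving out 1 library gave 20 to 25 members lower and 0 to 3 higher without overlap. Over all genes tested the shares were 15.6% and 15.1% without cKO 1 and 19.1% and 18.5% without cKO 2. For the other libraries, among them WT 1, which gave the 25, the share over all genes was not computed. Calls over all genes depended on the setting. Against 0 lower and 0 higher genes, 23 and 7 were called with no filter on low values and 369 and 262 with array weights. Leaving out 1 library gave 0 to 52 lower and 0 to 70 higher genes, with 22 and 2 without cKO 1 and 52 and 70 without cKO 2. Of the other repair genes, 2 were called lower with no filter and 24 with array weights, where 1 was called higher; leaving out 1 library gave 0 to 2, with 2 without cKO 1 and 1 without cKO 2. The log2 fold change of *Nedd4l* was −1.09 with array weights and ran from −1.28 to −0.79 when 1 library was left out. *Alkbh3* reversed to 0.025 with array weights, and without 1 library it ran from −0.14 to 0.12. The cause of these shifts was not tested.

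Samples with the same replicate number did not deviate together (correlations of −0.029, −0.090 and −0.056), and the main fit did not pair the genotypes. With 3 libraries per genotype these values cannot show whether libraries were paired, for example by litter. With the replicate block, 0 genes were called lower and 0 higher, the median of the repair genes was −0.39, and *Nedd4l* had −0.99 (limma adjusted p = 0.236). Count models were not run, because whole reads were not taken as recovered. With 3 libraries per genotype, members within 1 SE of 0 could not be placed on either side.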

Other observations

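Within the genes of G2 and M phase, the 5 of 20 that were higher in cKO without overlap (10.5% of all genes tested) were *Ccnb1* (log2 fold change 0.37), *Ccnb2* (0.40), *Cdc20* (0.44), *Cenpa* (0.31) and *Cenpf* (0.27), which encode the mitotic cyclins, the activator that starts anaphase and centromere proteins. *Aurkb* (−0.35) and *Kif11* (−0.19) were lower without overlap (10.9% of all genes tested). Of 14 genes that p53 induces after DNA damage, *Mdm2* (0.25), *Ccng1* (0.14) and *Sesn2* (0.36) were higher and *Aen* (−0.38) was lower without overlap. Over all genes tested these shares were 10.5% and 10.9%, and the median of the list was 0.059. The cell cycle inhibitor *Cdkn1a* (−0.13) overlapped. At an adjusted p under 0.05 limma called 0 genes of either list; at an unadjusted p under 0.05 the 20 genes of G2 and M phase gave 1 lower and 5 higher and the 14 p53-induced genes 1 lower and 2 higher, beside 7.08% lower and 6.91% higher over all genes tested. All were named after their values were seen.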
